A study of Mus musculus with 8 samples.

Results

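Heat shock factor 1 and the cytosolic chaperones that heat induces were followed in mouse bone marrow-derived dendritic cells (BMDC) that had taken up ferroptotic cancer cells. The 10 genes are Hsf1, Hspa1a, Hspa1b, Hspa8, Hsph1, Hspb1, Dnaja1, Dnajb1, Hsp90aa1 and Bag3. They were chosen by symbol, through the Ensembl identifier of each row, and all 10 were found among the 55487 genes of the count table. A filter on low counts kept 15411 genes for testing, among them 9 of the 10. Hspb1 did not pass it. BMDC came from wild-type C57BL/6J mice and were grown for 10 days in GM-CSF (20 ng/ml). The control group, called BMDC, holds 4 libraries of untreated cells. The other group, BMDC-fer, holds 4 libraries of cells that were co-cultured for 4 h with dying Jurkat cells and then sorted for engulfment. Jurkat is a human line from a T-cell leukemia, and its cells had been killed with ML162 (0.5 µM, 14 h), a compound that triggers ferroptosis by inhibiting GPX4. Whether the untreated BMDC also went through the sorter is not given in the sources used here. Uptake, co-culture, sorting and any ML162 carried over with the Jurkat cells cannot be told apart.

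Chaperones bind unfolded proteins and help them to fold, to dissolve from aggregates or to reach degradation. When unfolded proteins accumulate, the transcription factor HSF1 is released from chaperones, forms trimers and binds heat shock elements, which are inverted repeats of GAA, in the promoters of chaperone genes. HSP70 proteins work in a cycle in which J proteins (HSP40) deliver the client and stimulate the ATPase, while HSP110 and BAG proteins exchange the nucleotide. HSP90 takes over many clients late in folding, and small heat shock proteins hold unfolded proteins without using ATP. Dendritic cells meet chaperones in a further role, as carriers of peptides released by dying cells.

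Total counts were between 39326672 and 50532209 per library, so a floor of 3 counts corresponds to 0.0607 to 0.0785 CPM (counts scaled to library size, with TMM factors). This floor reflects counting error alone, as the reads carry no molecular identifiers and may be copies of 1 molecule. In both groups the libraries of replicates 1 and 2 lay apart from those of replicates 3 and 4. Dendritic cell markers were expressed, Itgax (CD11c) at 748 to 1407 CPM, but 7 of the 8 markers were called lower in BMDC-fer with the replicate number as a block (Flt3 alone without it), and their summed level was 7463 to 17762 CPM in BMDC against 3386 to 8575 CPM in BMDC-fer. Of all 15411 tested genes, 1253 were called lower with the block and 911 without it. Cd74 was the highest of the dendritic cell markers and Flt3 the lowest, by the mean over all 8 libraries, as for the lists that follow. In bulk samples, fewer cells of a type and less RNA per cell cannot be told apart. Macrophage markers (C1qb the highest, Mertk the lowest) summed to 1118 to 2038 CPM in BMDC and 1174 to 2755 CPM in BMDC-fer. In BMDC-fer, 5 of the 6 were higher (7718 of all 15411 tested genes), with a median log2 fold change of 0.48. Only Adgre1 was called, and it was lower with and without the block (named after its values were seen). Neutrophil markers (S100a8 the highest, Mpo the lowest) summed to 39.3 to 208 CPM and 13.4 to 39.3 CPM, and 4 of 7 were called lower (7 of 7 with the block). The 5 mast cell and basophil markers (Gata2 the highest) summed to 12.3 to 41.2 CPM and 4.77 to 12.4 CPM, and 0 of the 2 tested were called by edgeR (2 at an unadjusted p under 0.05, and 1 was called lower with the block), with Mcpt4 at 0 in all libraries. Of all 15411 tested genes, 4612 were at an unadjusted p under 0.05. The 10 T-cell genes that Jurkat cells also express summed to 33.7 to 46.2 CPM in BMDC against 29.3 to 54.1 CPM in BMDC-fer, of which Cd28 alone held at least 27.5 CPM in each library. Bcl11b had 0 counts in all 8 libraries, Cd3e reached at most 0.147 CPM, and 2 of the 4 tested were called lower (Lck and Tcf7, and also Cd3g under the block, all named after their values were seen). Mouse reads and Jurkat reads from conserved coding sequence are not separated by these values, and the part of cell composition or of engulfed RNA in the results that follow was not tested. The methods name female mice, whereas all 8 libraries held the Y-linked Eif2s3y at 66.8 to 83.4 CPM and Xist at no more than 0.0473 CPM.

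HSF1 binding sequences introduce the genes. Promoters here are the 250 bases before a transcript start in RefSeq (GRCm38.p6). They were at hand for 7 of the 10 genes, with Hsf1, Hspa8 and Hsp90aa1 without an entry. GAANNTTC and TTCNNGAA, the inner repeats of a heat shock element, were searched for. Both read the same on either strand, and a match to one can share a repeat with a match to the other. At least one of them was present in 12.8% of all 32851 promoters (GAANNTTC in 6.69%, TTCNNGAA in 7.17%) and in 6 of the 11 promoters of these genes, which belong to 5 of the 7 genes, namely Hspa1a, Hspa1b, Hsph1, Hspb1 and Dnaja1. The promoters of Dnajb1 and Bag3 held neither. A match is a description of the letters and not a binding site. The whole promoters of Hspa1a (chr17:34972157-34972406, minus strand) and Hspa1b (chr17:34959239-34959488, minus strand) are shown since these neighbouring genes are the classical targets of HSF1 and are nearly identical, with 247 of 250 bases equal (98.8%). The capitals mark GAANNTTC, which starts 104 bases before the transcript start in both.
Hspa1a: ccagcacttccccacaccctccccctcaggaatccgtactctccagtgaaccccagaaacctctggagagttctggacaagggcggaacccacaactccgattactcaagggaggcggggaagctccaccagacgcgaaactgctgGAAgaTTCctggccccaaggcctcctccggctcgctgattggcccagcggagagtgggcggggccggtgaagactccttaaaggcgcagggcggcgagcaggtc
Hspa1b: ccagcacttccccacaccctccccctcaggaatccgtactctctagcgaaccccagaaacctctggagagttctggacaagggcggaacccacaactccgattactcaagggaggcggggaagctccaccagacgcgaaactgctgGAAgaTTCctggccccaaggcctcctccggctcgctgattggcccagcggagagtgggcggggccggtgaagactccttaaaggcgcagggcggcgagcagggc
For the other 3 genes, 30 bases around the match are given, with the repeats in capitals. The stretches are chr5:149636351-149636380 on the minus strand (Hsph1), chr5:135887801-135887830 on the plus strand (Hspb1) and chr4:40722333-40722362 on the plus strand (Dnaja1). The Hspb1 stretch holds GAANNTTC in 2 places, and 1.46% of all promoters held 2 or more matches to either motif. The Dnaja1 match belongs to 1 of its 3 annotated starts.
Hsph1: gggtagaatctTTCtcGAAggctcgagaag
Hspb1: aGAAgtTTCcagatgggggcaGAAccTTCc
Dnaja1: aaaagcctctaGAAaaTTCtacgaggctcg

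The 10 genes covered a wide range of levels. Levels of different genes are compared per kilobase (kb) of exon. In BMDC the order was led by Hspa8, the constitutive cytosolic HSP70 (HSC70), at 310 ± 57.0 CPM per kb (SD, n = 4), followed by Hsp90aa1, the inducible HSP90 alpha, at 75.7 ± 1.92 CPM per kb. Dnaja1 (17.1 ± 0.668), Bag3 (13 ± 2.6) and Dnajb1 (12 ± 3.7 CPM per kb) came next. Hsf1 (4.52 ± 0.709) and Hsph1 (4.10 ± 0.490 CPM per kb) lay below them. The classical heat-inducible genes Hspa1b (0.697 ± 0.243) and Hspa1a (0.586 ± 0.395 CPM per kb) lay far lower, and Hspb1, which encodes the small heat shock protein HSP25, closed the order at 0.195 ± 0.103 CPM per kb. Between neighbours in this order, the libraries overlapped for Bag3 and Dnajb1, Hsf1 and Hsph1, Hspb1 and Hspa1a, and Hspa1a and Hspa1b, so these pairs are not ordered beyond their spread. In BMDC-fer, Dnaja1 (20.7 ± 0.989) overlapped with Bag3 (18.1 ± 5.06), Dnajb1 (9.67 ± 1.54) with Hsph1, and Hspa1a (1.69 ± 1.36) with Hspa1b (1.65 ± 1.3 CPM per kb). Hsph1 reached 8.20 ± 3.22 CPM per kb and stood above Hsf1 (4.97 ± 0.385) in the order of means, with libraries from 5.22 to 11.6 against 4.54 to 5.38 CPM per kb. Per kb of the longest coding transcript, Hsf1 was at 15.2 ± 2.39 CPM per kb in BMDC, above Bag3, so its place depends on the length used. Hspa8 alone held 63.7 to 72.0% of the summed CPM of the 10 genes in BMDC and 71.9 to 80.4% in BMDC-fer.

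**Figure D1:**
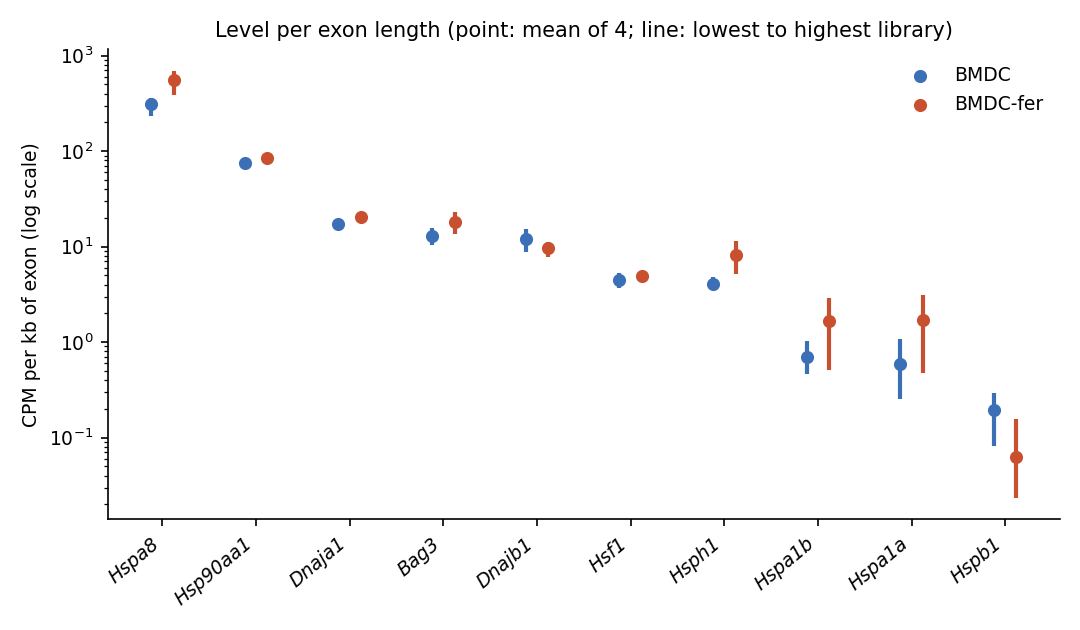
Level of each of the 10 genes per kb of exon (CPM per kb, log axis) in BMDC and BMDC-fer, with points for the means of 4 libraries, lines from the lowest to the highest library and genes in the order of their mean in BMDC. Hspa8 stands at the top with a mean of 310 CPM per kb in BMDC and 552 in BMDC-fer, and Hspb1 at the bottom.

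Only 2 of the 9 tested genes passed the test between BMDC-fer and BMDC, and both rose. They were Hspa8 and Hsph1, the constitutive HSP70 and its nucleotide exchange factor HSP105. A gene is called here at an adjusted p of 0.05 or less (edgeR's quasi-likelihood test, Benjamini-Hochberg over all tested genes) with a log2 fold change of at least 0.58 in either direction. Over all 15411 genes, 9.38% were called, 3.47% higher and 5.91% lower in BMDC-fer, against 22.2% of the 9. The log2 fold change was above 0 for 8 of the 9 (7718 of all 15411 tested genes), with a median of 0.48, while the median of all tested genes was 0.00069. Hspb1, which is not among the 9, had a log2 fold change of -1.50 without the filter. Libraries of the groups did not overlap for 3 of the 9 (Hspa8, Hsph1 and Dnaja1), or 33.3%, against 22.9% of all tested genes. With 9 genes, 1 gene more or less changes these shares by over 10 percentage points. Replicates carry shared numbers, and a fit with the replicate number as a block called 13.0% of all genes. It called 2 of the 9, which were Hspa8 and Hspa1a in place of Hsph1.

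**Figure D2:**
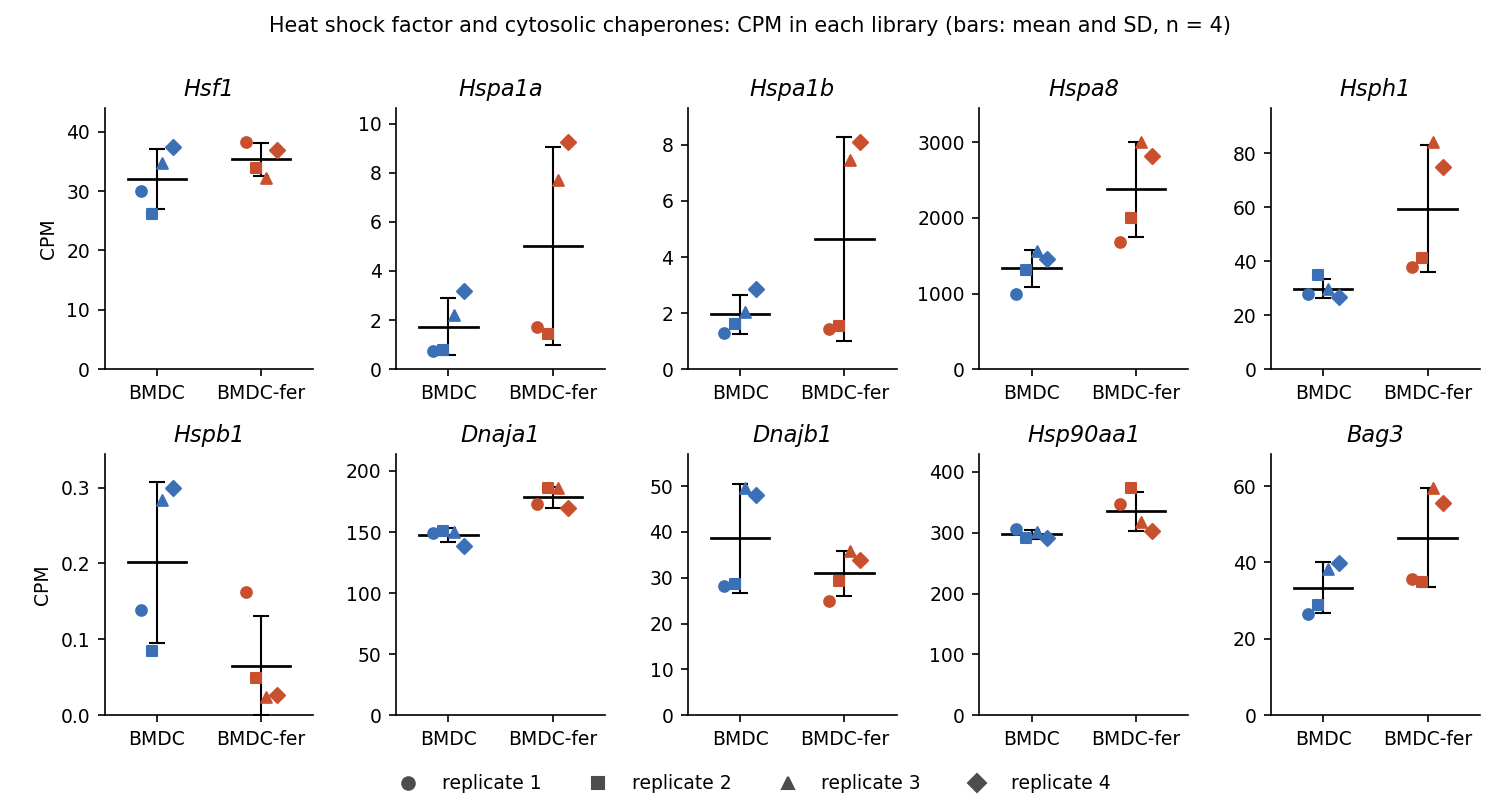
CPM of each gene in each library, with the replicate number as the marker shape and bars for the mean and SD (n = 4 per group). The BMDC and BMDC-fer libraries do not overlap for Hspa8, Hsph1 and Dnaja1, and replicates 3 and 4 of BMDC-fer stand highest for Hspa1a, Hspa1b, Hspa8, Hsph1 and Bag3.

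Hspa8 (ENSMUSG00000015656, chr9:40800984-40810087, plus strand) keeps clients soluble, uncoats clathrin vesicles and feeds chaperone-mediated autophagy. It was at 1001, 1308, 1560 and 1464 CPM in BMDC replicates 1 to 4, and at 1686, 2002, 3000 and 2816 CPM in BMDC-fer replicates 1 to 4. Each BMDC-fer library was above each BMDC library, and replicates 3 and 4 of BMDC-fer were the highest. The mean went from 1333 ± 245 to 2376 ± 632 CPM (SD, n = 4), 1.78-fold, with a log2 fold change of 0.83 (SE 0.23, 95% interval 0.32 to 1.35, adjusted p = 0.0469). The exact two-sided permutation test gave p = 0.0286, the smallest that 4 against 4 allows. Here and for Hsph1 below, that test treats the 8 libraries as separate units, although replicates 1 and 2 lay apart from 3 and 4. With the block, the log2 fold change was 0.81 (adjusted p = 0.0126). The call was lost when any library other than BMDC-fer replicate 1 was left out, with adjusted p between 0.0708 (without BMDC-fer replicate 2) and 0.122 (without BMDC-fer replicate 4). Of the 50-base words of its longest coding transcript, 74.8% also occur in other genes, 70% in the processed pseudogene Gm15459. Counts of Gm15459 were 14.7 to 18.1% of those of Hspa8, and with its pseudogene rows added the log2 fold change was still 0.83, with an adjusted p of 0.0518. Its exons also contain 3 small nucleolar RNA genes, Snord14c, Snord14d and Snord14e.

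Hspa1a (ENSMUSG00000091971, chr17:34969190-34972156, minus strand) and Hspa1b (ENSMUSG00000090877, chr17:34956436-34959238, minus strand) encode the inducible HSP70, which is scarce in unstressed cells. Hspa1a was at 0.76, 0.80, 2.22 and 3.17 CPM in BMDC, and at 1.74, 1.42, 7.71 and 9.24 CPM in BMDC-fer. Hspa1b was at 1.29, 1.62, 2.03 and 2.87 CPM in BMDC, and at 1.44, 1.54, 7.45 and 8.09 CPM in BMDC-fer. For both genes, replicates 3 and 4 of BMDC-fer stood above all other libraries, and replicates 1 and 2 of BMDC-fer lay within the range of BMDC. Hspa1a gave the largest log2 fold change of the 9, 1.53 (SE 0.72, 95% interval -0.11 to 3.17, adjusted p = 0.191), and did not pass the test. All 4 same-numbered pairs were higher in BMDC-fer, and with the replicate block it was called at 1.36 (adjusted p = 0.0167). Hspa1b had a log2 fold change of 1.24 (SE 0.61, adjusted p = 0.205) and 0.89 with the block (adjusted p = 0.166), and was higher in 3 of 4 pairs. The transcripts share 58.8% of the 50-base words of Hspa1a, so reads could have been split between them. Added together, the 2 genes were at 2.05, 2.42, 4.26 and 6.04 CPM in BMDC, and at 3.18, 2.96, 15.2 and 17.3 CPM in BMDC-fer, with a log2 fold change of 1.39 (SE 0.64, adjusted p = 0.185). Hspa1b held 45.2 to 67.0% of the added counts. At the opposite strand, the exons of Hspa1a overlap those of Gm20481 over 19% of their bases, and Gm20481 had 0 counts.

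Hsph1 (ENSMUSG00000029657, chr5:149614287-149636376, minus strand) encodes HSP105, which exchanges the nucleotide of HSP70 and helps it to take aggregates apart. It was at 27.9, 34.8, 29.7 and 26.8 CPM in BMDC, and at 37.9, 41.2, 84.1 and 75.0 CPM in BMDC-fer. The groups did not overlap, and replicates 1 and 2 of BMDC-fer lay close above the highest BMDC library, with replicates 3 and 4 far higher. The mean went from 29.8 ± 3.56 to 59.6 ± 23.4 CPM (SD, n = 4), with a log2 fold change of 1.00 (SE 0.26, 95% interval 0.40 to 1.60, adjusted p = 0.0434) and an exact permutation p of 0.0286. With the block the log2 fold change was 0.92 and the adjusted p 0.0600, so the call was lost in edgeR. DESeq2 with the block kept it (0.92, adjusted p = 0.00422), in a fit added once the data had been seen. It was kept without BMDC-fer replicate 1 (adjusted p = 0.0293) and without BMDC-fer replicate 2 (0.0483), and lost without any of the other 6 libraries. There the adjusted p was between 0.0541 (without BMDC replicate 2) and 0.117 (without BMDC-fer replicate 4). None of its 50-base words occurs in another gene. Bag3 (chr7:128523616-128546981, plus strand), a second exchange factor that links HSP70 clients to selective autophagy, was at 26.5, 29.0, 38.3 and 39.8 CPM in BMDC, and at 35.6, 34.9, 59.4 and 55.7 CPM in BMDC-fer. The groups overlapped, although all 4 same-numbered pairs were higher in BMDC-fer. Its log2 fold change was 0.48 (SE 0.22, adjusted p = 0.188), and 0.45 with the block (adjusted p = 0.0358), which is under the threshold of 0.58.

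The J proteins Dnaja1 and Dnajb1 had log2 fold changes of opposite sign. Dnaja1 (chr4:40722150-40737149, plus strand), a farnesylated partner of HSC70, was at 149, 151, 150 and 139 CPM in BMDC, and at 173, 186, 186 and 170 CPM in BMDC-fer. Its libraries did not overlap and spread little, but the log2 fold change was 0.28 (SE 0.087, 95% interval 0.081 to 0.47, adjusted p = 0.0703), and it was not called. The upper bound of the interval lies under the threshold of 0.58. Dnajb1 (chr8:83608193-83612653, plus strand), the J protein known for its induction by heat and for holding HSF1 in check together with HSP70, was at 28.1, 28.6, 49.6 and 48.1 CPM in BMDC, and at 24.9, 29.3, 35.9 and 33.8 CPM in BMDC-fer. The groups overlapped, and 3 of 4 same-numbered pairs were lower in BMDC-fer. Dnajb1 had a log2 fold change of -0.32 (SE 0.23, adjusted p = 0.374). Exons of Dnaja1 overlap those of Smu1 on the opposite strand over 7.05% of their bases, and the use of strand in counting is not given in the sources used here.

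Hsp90aa1 (chr12:110690605-110702728, minus strand) was at 306, 292, 301 and 291 CPM in BMDC, and at 346, 373, 318 and 302 CPM in BMDC-fer. The groups overlapped only through BMDC-fer replicate 4, and in all 4 pairs BMDC-fer was higher. Hsp90aa1 had a log2 fold change of 0.17 (SE 0.10, 95% interval -0.060 to 0.40, adjusted p = 0.291), so a change as large as 0.58 lies outside the interval. Of its 50-base words, 58.5% occur in other genes, mostly in the pseudogene Gm12346, whose mean was 21.7 CPM in BMDC against 26.5 CPM in BMDC-fer. Hspb1 (chr5:135887919-135889563, plus strand) was close to the floor, with 6, 4, 12 and 12 counts in BMDC and 8, 2, 1 and 1 counts in BMDC-fer. In 3 BMDC-fer libraries it was under the floor of 3 counts. Without the filter its log2 fold change was -1.50 (adjusted p = 0.270), so no difference was detectable at this depth.

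Hsf1 (chr15:76477422-76501913, plus strand), the regulator itself, was at 30, 26, 35 and 37 CPM in BMDC, and at 38.2, 33.9, 32.2 and 36.9 CPM in BMDC-fer. The groups overlapped, and 2 of 4 pairs were higher. Its log2 fold change was 0.14 (SE 0.13, 95% interval -0.17 to 0.44, adjusted p = 0.520). HSF1 is known to be regulated mainly as a protein, which these libraries did not measure.

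**Figure D3:**
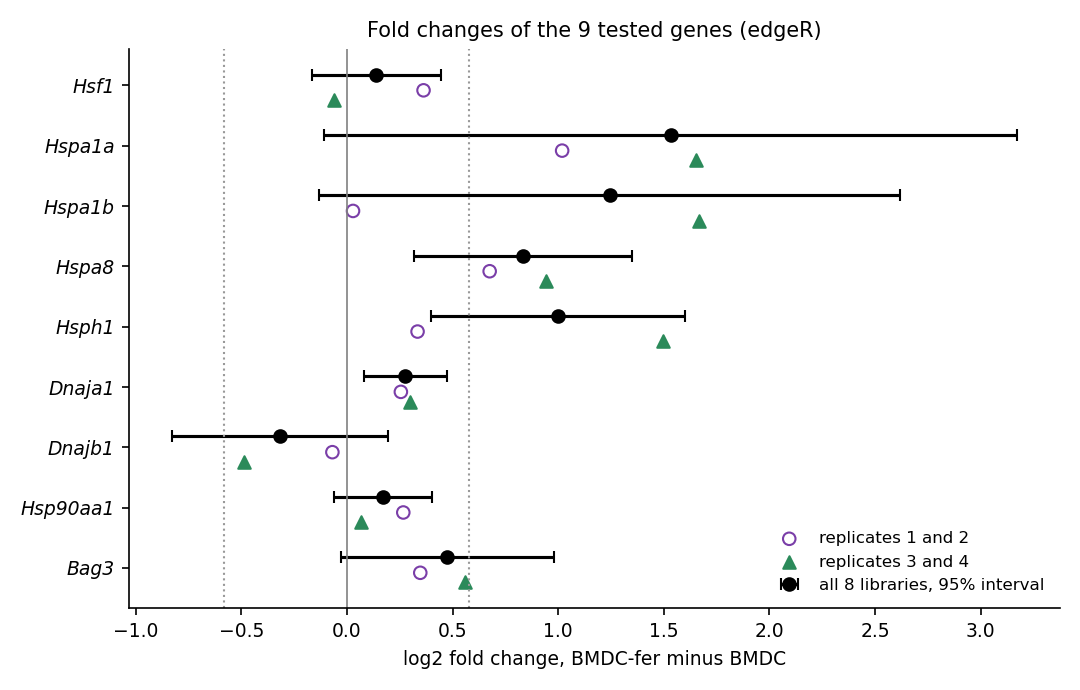
Log2 fold change of BMDC-fer against BMDC for each of the 9 tested genes over all libraries, with 95% intervals, and within replicates 1 and 2 (open circles) and replicates 3 and 4 (triangles). Dotted lines stand at 0.58 in both directions. Hspa1b and Hsph1 are at 0.029 and 0.33 within replicates 1 and 2 but at 1.66 and 1.49 within replicates 3 and 4.

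Between the replicate pairs, 3 of the 9 genes differed in how far they changed, namely Hsph1, Hspa1b and Dnajb1. This was tested as the interaction of group and replicate pair (edgeR, adjusted over all genes), which passed for 37.8% of all tested genes. Hsph1 had a log2 fold change of 0.33 within replicates 1 and 2 but of 1.49 within replicates 3 and 4, a difference of 1.16 (adjusted p = 0.00113). For Hspa1b it was 0.029 and 1.66, a difference of 1.64 (adjusted p = 0.00447). Dnajb1 gave -0.069 and -0.49, a difference of -0.42 (adjusted p = 0.0390). Hspa8, by contrast, gave 0.68 within the first pair of replicates against 0.94 within the second, and Hspa1a gave 1.02 and 1.65, with no difference that passed (adjusted p = 0.308 and 0.179). Within replicates 1 and 2, 2 of the 9 were called (Hspa1a and Hspa8), beside 22.3% of all genes. Within replicates 3 and 4, 4 of the 9 were called (Hspa1a, Hspa1b, Hspa8 and Hsph1), beside 33.0% of all genes. Each arm of these fits holds 2 libraries, and the p-values rest on the spread within the arms. They do not measure how the effect would vary between further sets of replicates. What the replicate pairs stand for is not given in the sources used here.

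Among the rest of the chaperone network, 2 of 87 tested genes were called (2.30%), both higher, against 9.38% of all tested genes (3.47% higher and 5.91% lower). These 87 come from 92 genes in 11 lists, and their median log2 fold change was 0.081. One was Pdia4, a protein disulfide isomerase of the endoplasmic reticulum, which went from 223 ± 60.2 to 423 ± 65.0 CPM (SD, n = 4). Its log2 fold change was 0.92 (SE 0.21, adjusted p = 0.0255), and it was 1 of 10 ER chaperones, a list with a median of 0.26. The other was Dnaja3, a mitochondrial J protein, at 30.8 ± 5.02 and 48.2 ± 1.56 CPM, with a log2 fold change of 0.65 (SE 0.13, adjusted p = 0.0173), 1 of 7 mitochondrial chaperones with a median of -0.030. Both were also called with the replicate block. The call of Pdia4 was lost without BMDC replicate 3 or 4 and without BMDC-fer replicate 2, 3 or 4, and that of Dnaja3 without BMDC replicate 3 and without BMDC-fer replicate 2 or 4, where each list had 0 calls.

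Of the 70 tested genes in the other 9 lists, edgeR called 0, with 15 at an unadjusted p under 0.05. Over all 15411 tested genes, 4612 were at an unadjusted p under 0.05 in that edgeR test. DESeq2 called 4 genes of these lists, which were Hsf2, Hspb6, Hspb11 and Dedd2, each lower, beside 2415 called over all genes. Of the 3 tested other heat shock factors and their regulators, Hsf2 had the largest change, from 30.8 ± 9.71 to 18.1 ± 1.32 CPM, with a log2 fold change of -0.77 (adjusted p = 0.0524). With the block 2 of these were called, Hsf2 lower (-0.72, adjusted p = 0.0413) and Hsf4 higher (0.73, adjusted p = 0.0456), the latter named after its values were seen. The 7 other cytosolic HSP70 and HSP110 genes had a median log2 fold change of 0.16, with Hspa12a as the largest at 0.72 (adjusted p = 0.149). The 13 other cytosolic J proteins had a median of -0.12, with Dnajb4 at -0.80 (adjusted p = 0.400). That value joins opposite changes, 0.64 within replicates 1 and 2 and -1.31 within replicates 3 and 4 (interaction adjusted p = 0.000144). The 6 other BAG and exchange factors had a median of 0.15, with Bag2 at 0.27 (adjusted p = 0.652). Of the small heat shock proteins, 4 of 8 were tested, with a median of -0.45 and Hspb11 at -1.04 (adjusted p = 0.0586).

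HSP90 beta and the cytosolic co-chaperones of HSP90 were above 0 for 13 of 16 genes (7718 of all 15411 tested genes), with a median log2 fold change of 0.14. The largest was Ahsa1, the activator of the HSP90 ATPase, at 70.6 ± 10.5 and 100.1 ± 7.66 CPM, with a log2 fold change of 0.50 and an adjusted p of 0.0358, under the threshold of 0.58. The 7 other heat-inducible genes had a median of -0.36. Dedd2 was lowest at -0.96 (adjusted p = 0.0938), and it was called with the block (-0.88, adjusted p = 0.0164). The 8 subunits of the chaperonin TRiC had a median of 0.15, with Cct3 at 0.55 (adjusted p = 0.0109), again under the threshold, and the 6 subunits of prefoldin had a median of 0.16, with Pfdn2 at 0.29 (adjusted p = 0.311).

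**Figure D4:**
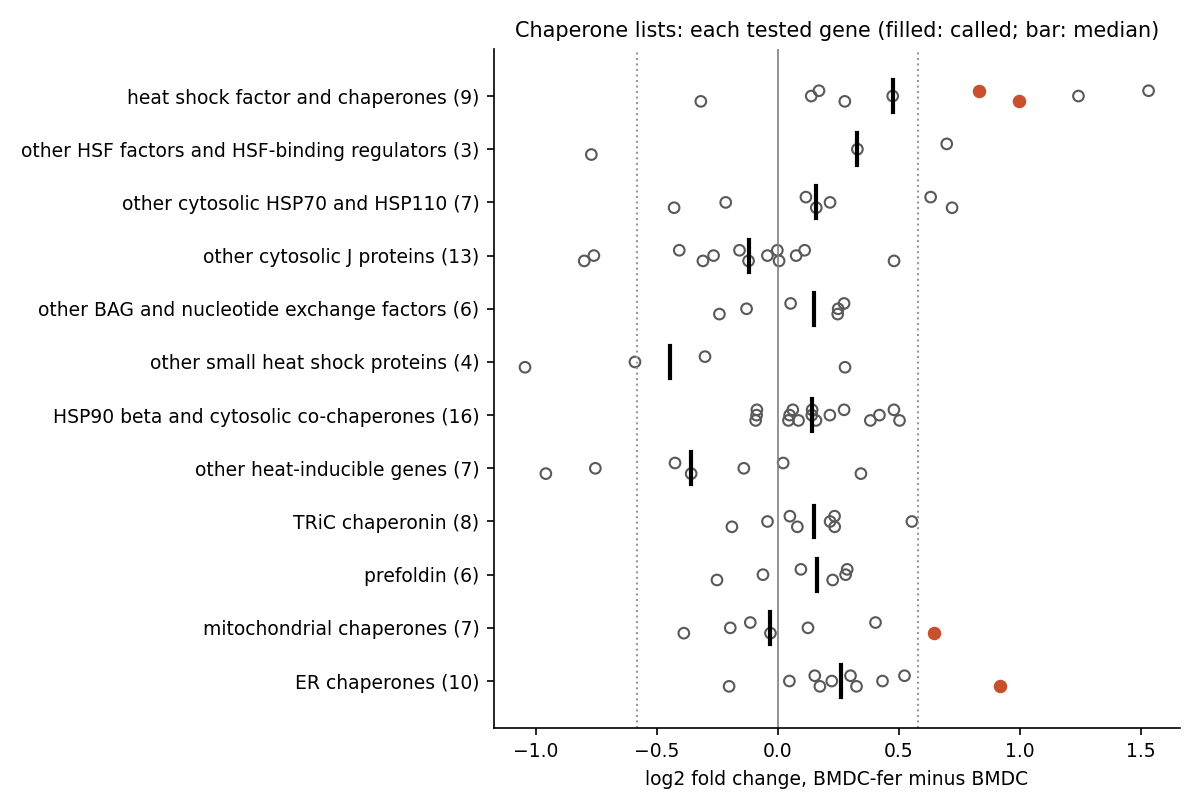
Log2 fold change of BMDC-fer against BMDC for each tested gene of the 10 heat shock genes and of the 11 other lists, with the number tested in brackets, filled points for called genes, bars for medians and dotted lines at the threshold of 0.58 in both directions. Filled points are Hspa8 and Hsph1 in the top row, Dnaja3 among the mitochondrial and Pdia4 among the ER chaperones.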

How the data were processed

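RNA of 4 BMDC and 4 BMDC-fer libraries was sequenced. After alignment with HISAT2, the authors assigned reads to genes with featureCounts and deposited raw counts of mouse genes. The submitters' notes name mm10, and the annotation release and the handling of multi-mapping reads are not given in the sources used here. Human counts were not analysed here. The 10 genes and all lists were chosen with earlier results of these data known. Counts were tested in R 4.3.3 with edgeR 4.0.16 (TMM, filterByExpr with a minimum count of 10, quasi-likelihood test, Benjamini-Hochberg over 15411 genes), after tests on simulated data. The thresholds, an adjusted p of 0.05 and an absolute log2 fold change of 0.58, follow the study's methods. The alternatives were DESeq2 1.42.0, the tool of the study, other normalizations and filters, the block, and leaving out each library. Single genes were also compared by an exact permutation test of log2(CPM + 0.05). Pairing comes from the numbers in the labels. Deviations from the group means of same-numbered libraries correlated across genes at r = 0.446, 0.355, 0.313 and 0.343, each above 0.1, so the numbers were taken to pair the samples. Differently numbered libraries within replicates 1 and 2 or 3 and 4 correlated about as well (0.186 to 0.380), and those across these sets at -0.388 to -0.279, so the correlations separate the 2 sets rather than single numbers. No pair of libraries differed by less than sampling noise. The study gives 4 independently collected samples, and the labels do not tie them to animals. Symbols were found for 55141 of the 55487 identifiers, and positions and exon lengths come from GENCODE M21 (GRCm38). Besides the 10 genes, the called genes of each list are named, or else its largest change, and the highest and lowest marker.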

Additional observations from a re-analysis of the deposited data

Results flagged for a closer look

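Among the 20 groups of 4 libraries examined (10 genes in both groups), BMDC replicate 4 of Dnaja1 stood apart from the other 3, with a gap of 0.849 of the range of the group, on a criterion that chance meets in about 1 of 20 groups. The effect differed between replicates 1 and 2 and replicates 3 and 4 by a test of the interaction for 3 genes. The difference in log2 fold change, replicates 3 and 4 minus replicates 1 and 2, was 1.64 for Hspa1b, 1.16 for Hsph1 and -0.42 for Dnajb1. The same test passed for 37.8% of all genes.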

How the results depend on the processing

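The number of called genes (1445) was 2415 with DESeq2, 2867 with DESeq2 and the replicate block (chosen after the data were seen), 225 when the null was a change up to the threshold, 3435 within replicates 1 and 2, 5092 within replicates 3 and 4, and 565 to 1440 with each library left out in turn. With edgeR and the replicate block it was 2000. Of the heat shock genes, 2 were called, and the number was 1 with total counts only (Hsph1 lost), 0 against that null (edgeR, 1 at an unadjusted p under 0.05), 1 with the pseudogene rows of Hspa8 added to it (chosen after the data were seen), 3 with DESeq2 and the block (Hspa1a, Hspa8 and Hsph1), 4 within replicates 3 and 4, and 0 to 2 with each library left out. Against that null, 1530 of all 15411 tested genes were at an unadjusted p under 0.05 in edgeR. The direction was reversed for Hsf1 within replicates 3 and 4, at a log2 fold change of -0.063 (adjusted p = 0.665). Of 192 values of the 10 genes under the alternatives, 167 kept their direction and their side of the threshold. A call was lost in 19 and gained in 5, and 1 was reversed. All 19 lost calls were of Hspa8 (9 of 20 alternatives) or Hsph1 (10 of 20), the 2 genes that could lose one. In edgeR the block changed the calls of Hspa1a and Hsph1 and of no other gene among the 10. The cause of these changes was not tested. Where a library was left out, the fit also held fewer libraries. Depth limits Hspb1, and Hspa1a and Hspa1b rest on few reads.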
